A study of Mus musculus with 8 samples.

Results

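The neuromuscular junction genes described here encode the muscle acetylcholine receptor and the proteins that gather it beneath the motor nerve ending. They were the 5 receptor subunit genes *Chrna1*, *Chrnb1*, *Chrnd*, *Chrne* and *Chrng*, and the 5 organizer genes *Musk*, *Dok7*, *Rapsn*, *Lrp4* and *Agrn*. Every non-control probe that the array files assign to a mouse RefSeq transcript of these 10 genes was used, which gave 16 of the 56605 probes on the array. *Chrng* (NM_009604), *Musk*, *Lrp4* and *Agrn* (NM_021604) had more than 1 probe.

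The arrays compared skeletal muscle of 17-month-old male Grsf1cKO and WT mice, 3 of each. In Grsf1cKO mice, exons IV and V of *Grsf1*, the gene of an RNA-binding protein of mitochondria, were flanked by LoxP sites and deleted by Cre under control of the *Myf5* locus (Myf5Cre), after the LacZ and Neo cassettes of the original Grsf1tm1a allele had been removed with FLPo mice. *Myf5* is active in muscle precursors, and also in precursors of brown fat, so that the deletion reaches muscle fibers through the cells they form from. The controls are named only as wild type, and whether they carried Myf5Cre or floxed alleles is not given in the sources used here. The sample labels name the muscle as vastus intermedius and the methods name the rectus femoris, both heads of the quadriceps.

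At the neuromuscular junction, agrin released by the motor nerve binds LRP4 on the muscle fiber, LRP4 activates the receptor tyrosine kinase MuSK, DOK7 acts inside the fiber as an activator of MuSK, and rapsyn anchors the receptors in a dense cluster. The adult receptor holds 2 alpha subunits with beta, delta and epsilon subunits. Fetal muscle and denervated muscle make a receptor with the gamma subunit (*Chrng*) in the place of epsilon (*Chrne*), and the subunit genes are then transcribed along the whole fiber rather than at the synapse alone. In muscle that has lost its nerve, the transcription factor myogenin acts on E-boxes of the subunit promoters. In innervated muscle, factors of the ETS family act on an N-box of synaptic genes in the nuclei beneath the nerve ending.

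The promoters of the 4 subunit genes for which a RefSeq promoter was at hand are shown first, *Chrng* and *Chrne* because they are set beside each other, and *Chrna1* and *Chrnb1* because their genotypes did not overlap. Each is the 250 bases before the annotated start in GRCm38.p6, on the strand of the gene, with E-boxes (CANNTG) and N-boxes (CCGGAA, searched on both strands) in capitals. The windows are chr1:87205561-87205810 on the plus strand for *Chrng*, chr2:73580339-73580588 on the minus strand for *Chrna1*, chr11:69795938-69796187 on the minus strand for *Chrnb1*, and chr11:70619195-70619444 on the minus strand for *Chrne*.
Chrng: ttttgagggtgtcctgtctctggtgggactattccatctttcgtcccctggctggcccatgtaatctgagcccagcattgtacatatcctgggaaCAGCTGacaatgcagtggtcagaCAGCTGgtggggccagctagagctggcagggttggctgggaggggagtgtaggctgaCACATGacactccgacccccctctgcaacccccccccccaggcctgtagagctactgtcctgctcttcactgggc
Chrna1: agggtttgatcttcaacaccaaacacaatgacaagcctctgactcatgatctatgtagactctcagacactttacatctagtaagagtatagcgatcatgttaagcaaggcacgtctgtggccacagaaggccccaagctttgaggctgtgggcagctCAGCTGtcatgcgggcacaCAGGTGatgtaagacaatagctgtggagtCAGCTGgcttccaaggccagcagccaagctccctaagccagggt
Chrnb1: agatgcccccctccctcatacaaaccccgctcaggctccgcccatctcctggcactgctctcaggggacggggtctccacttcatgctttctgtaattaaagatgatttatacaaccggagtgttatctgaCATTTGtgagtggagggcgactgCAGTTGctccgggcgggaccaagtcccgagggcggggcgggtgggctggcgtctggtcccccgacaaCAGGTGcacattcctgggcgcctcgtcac
Chrne: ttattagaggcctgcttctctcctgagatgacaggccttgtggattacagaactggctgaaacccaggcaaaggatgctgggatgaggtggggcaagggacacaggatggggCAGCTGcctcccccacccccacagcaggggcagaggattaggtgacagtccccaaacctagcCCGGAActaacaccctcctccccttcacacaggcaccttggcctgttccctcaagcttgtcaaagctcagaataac

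An E-box reads as an E-box on both strands. The form CAGCTG is also counted among the E-boxes. The *Chrng* promoter held 3 E-boxes, and CAGCTG was found at 155 and at 132 bases before the start. The *Chrna1* promoter also held 3 E-boxes, with CAGCTG at 92 and at 44 bases before the start. The *Chrnb1* promoter held 3 E-boxes, none of them CAGCTG. The *Chrne* promoter held 1 E-box, a CAGCTG at 138 bases before the start, and was the only one of the 9 windows of member genes with an N-box, at 76 bases before the start. The *Musk* window held 3 E-boxes, with a CAGCTG at 68 bases before the start. The *Dok7* and *Agrn* starts, 2 for each gene, held 1 E-box or none.

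Windows were at hand for 7 of the 10 genes, since *Chrnd*, *Rapsn* and *Lrp4* have none in the table. Among all 32851 promoters of the table, 66.2% held an E-box and 31.8% held 2 or more. CAGCTG was in 13.0% of all promoters, and 1.26% held it 2 or more times, as the *Chrng* and *Chrna1* windows did. The N-box was in 12% of all promoters. A match is a description of letters and was not tested for binding.

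**Figure D1:**
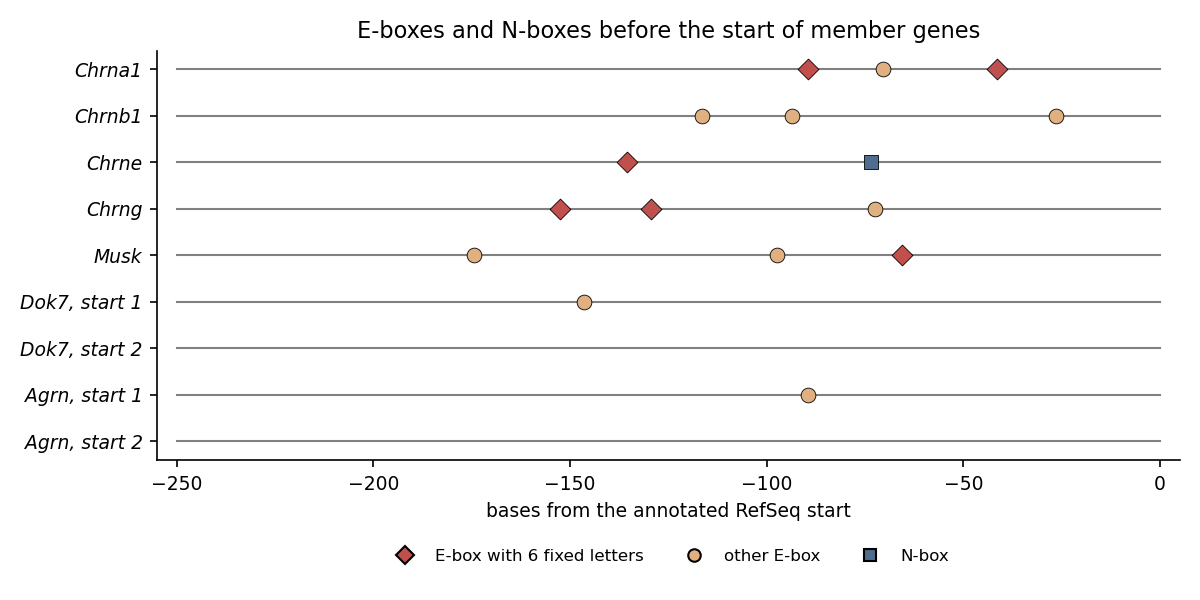
Positions of E-boxes and N-boxes in the 9 promoter windows of 7 genes, with the distance from the annotated RefSeq start in bases on the horizontal axis. Diamonds are CAGCTG, circles are other E-boxes and squares are N-boxes. The *Chrng* and *Chrna1* windows hold 2 diamonds each and the *Chrne* window holds the only square.

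All 16 member probes passed the detection filter, which asked for 3 or more mice with signal well above background. All but the dimmer *Chrng* probe were well above background in all 6 mice. No member spot was saturated or marked as an outlier. Values are given in the order of mice 1, 2 and 3 of a genotype. They are log2 of the quantile-normalized signal, with the arrays of a mouse averaged, and each probe is compared only with itself between mice. *Grsf1*, which checks the labels, read 12.16, 12.03 and 12.09 in the Grsf1cKO mice and 14.31, 14.26 and 14.28 in the WT mice (limma adjusted p = 0.00275). The share of spots well above background lay between 66.3% and 73.1% on 7 arrays and was 88.9% on the repeat array of Grsf1cKO 1. Over the 16 member probes, log2 signals of repeat and first array differed with an SD of 0.608 for Grsf1cKO 1 and of 0.177 for WT 1. All 12 markers of skeletal muscle fiber, such as *Acta1*, *Ckm* and *Ryr1*, were well above background in every mouse.

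No member probe met the study's criteria for a changed RNA, a false discovery rate under 0.2, computed here by Benjamini-Hochberg adjustment, together with an unadjusted p under 0.01 and a difference over 1.5-fold. Over all 38888 probes tested, 3 met them (0.00771%). The lowest adjusted p among the members in limma was 0.994. At an unadjusted p under 0.05, 2 of the 16 member probes were higher in Grsf1cKO and 0 lower, against 1.30% higher and 2.94% lower among all probes tested. The 2 were the probes of *Chrna1* and *Chrnb1*. A *z*-test on the log2 signals in place of limma, run with these criteria, also left 0 member probes past them, against 0.823% of all probes. The *z*-ratio, analysis of variance and average *z*-score filters of the methods were left out of this *z*-test. *Chrnb1* came nearest, with a *z*-test p of 0.0065 and an adjusted p of 0.152, at a fold of 1.49.

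Receptor subunits and organizers differed in their values, a difference that was described and not tested. The brightest probe of each of the 5 subunits had a positive log2 fold change, also under each of 19 alternative settings, with a median of 0.58. The 5 organizers had a median of 0.07, with 4 of them positive, of which *Rapsn* and *Lrp4* turned negative in some settings. Without Grsf1cKO 3, *Chrna1* had 0.54, *Chrnb1* 0.39, *Chrnd* 0.15, *Chrne* 0.29 and *Chrng* 0.26. The organizers then ran from -0.12 for *Dok7* to 0.12 for *Musk*. Among all probes tested 42.6% had a positive log2 fold change, and the median was -0.03. The subunit counts share 3 mice against 3, so that a mouse that stands apart can move several of them together. Grsf1cKO 3 was the highest mouse for 5 of the 10 brightest member probes, against 16.3% of all probes. WT 1 was the lowest mouse for 7 of the 10, against 17.9% of all probes.

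**Figure D2:**
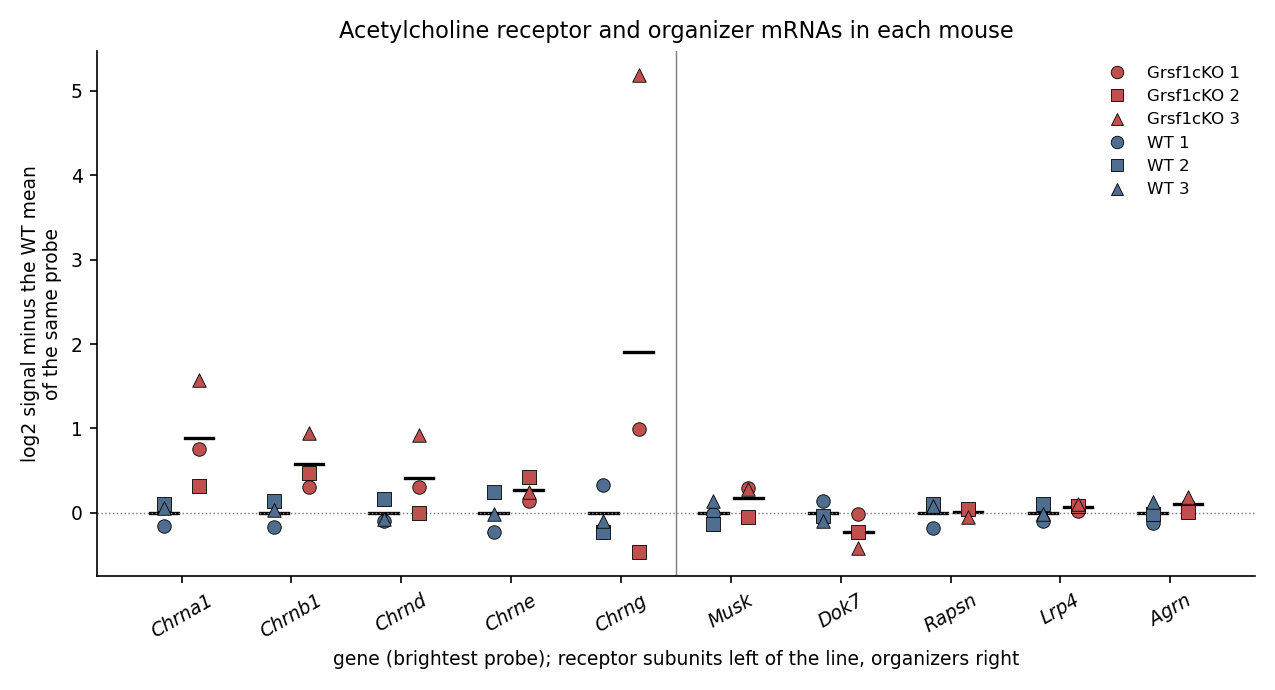
Log2 signal of the brightest probe of each of the 10 genes in every mouse, as the difference from the WT mean of that probe. Short bars are genotype means. For *Chrng* the point of Grsf1cKO 3 lies 5.19 above the WT mean, and the organizers' points lie within 0.42 of it.

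*Chrna1* (NM_007389) encodes the alpha subunit, which carries the acetylcholine binding sites. It read 13.23, 12.79 and 14.05 in the Grsf1cKO mice and 12.31, 12.57 and 12.53 in the WT mice on the log2 scale. All 3 Grsf1cKO mice were above all 3 WT mice, with Grsf1cKO 3 the highest and Grsf1cKO 2 nearest to the WT mice. The genotypes of 3.09% of all probes were separated in this direction. The genotypes differed by a log2 fold change of 0.89 ± 0.31 (SE), a 1.85-fold difference, with a 95% interval from 0.12 to 1.65. In limma the unadjusted p was 0.0297 and the adjusted p 0.994, and the exact permutation test over the mice gave a two-sided p of 0.1, the smallest that 3 against 3 can give. Without Grsf1cKO 3, the log2 fold change was 0.54 ± 0.17 (SE, unadjusted p = 0.0245 in limma). On slide 2 alone, which holds all Grsf1cKO arrays, the array of WT 3 and the repeat array of WT 1, it was 0.92 ± 0.38 (SE, unadjusted p = 0.0616 in limma). Leaving out WT 1, WT 2 or WT 3 gave 0.81, 0.94 and 0.92, with an unadjusted p of 0.0879, 0.0579 and 0.0606 in limma.

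*Chrnb1* (NM_009601) encodes the beta subunit, through which rapsyn holds the receptor. The log2 signal was 9.92, 10.08 and 10.55 in the Grsf1cKO mice and 9.43, 9.75 and 9.64 in the WT mice. As for *Chrna1*, the genotypes did not overlap and Grsf1cKO 3 was highest, though the lowest Grsf1cKO mouse was here Grsf1cKO 1. This was a log2 fold change of 0.58 ± 0.19 (SE), with a 95% interval from 0.12 to 1.03 and an unadjusted p of 0.0211 in limma (adjusted p = 0.994). It was 0.39 ± 0.14 (SE) without Grsf1cKO 3 and 0.49 ± 0.21 without WT 1 (unadjusted p = 0.0692 in limma). With the deposited *z*-scores on the log2 scale it was 0.49 ± 0.24 (SE, unadjusted p = 0.0815 in limma), and the genotypes overlapped. Without Grsf1cKO 3, *Chrna1* and *Chrnb1* were again the only members higher at an unadjusted p under 0.05, against 1.68% of all probes tested.

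*Chrnd* encodes the delta subunit. Its log2 signal was 10.25, 9.94 and 10.87 in the Grsf1cKO mice and 9.84, 10.11 and 9.87 in the WT mice. Grsf1cKO 2 lay below WT 2, so the genotypes overlapped, while on slide 2 alone, without WT 2, they did not, as for 7.17% of all probes in this direction on that slide. The log2 fold change of 0.41 ± 0.24 (SE) had an unadjusted p of 0.139 in limma and fell to 0.15 ± 0.15 without Grsf1cKO 3.

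*Chrne*, the adult epsilon subunit, had a log2 signal of 12.55, 12.84 and 12.66 in the Grsf1cKO mice and of 12.18, 12.65 and 12.39 in the WT mice. The highest mouse was Grsf1cKO 2 and the lowest WT 1, and WT 2 lay above Grsf1cKO 1. The log2 fold change was 0.27 ± 0.15 (SE), with an unadjusted p of 0.114 in limma. *Chrne* was the only subunit in which Grsf1cKO 3 was not the highest mouse. On slide 2 alone, with WT 1 and WT 3 as the WT mice, the genotypes did not overlap (7.17% of all probes there), and the log2 fold change was 0.40 ± 0.14 (SE, unadjusted p = 0.0315 in limma). It was 0.16 ± 0.14 without WT 1 and 0.39 ± 0.13 without WT 2.

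*Chrng*, the fetal gamma subunit, was the member with the widest spread between mice. Its brighter probe read 7.17, 5.71 and 11.37 in the Grsf1cKO mice and 6.50, 5.95 and 6.08 in the WT mice. Grsf1cKO 3 stood 4.20 above the next mouse, Grsf1cKO 1, an 18.3-fold difference, while Grsf1cKO 2 was the lowest of all 6 mice. Among 17020 genes by their brightest probe, only *Myh3* had a larger gap between Grsf1cKO 3 and the next mouse. The SD was 2.94 over the Grsf1cKO mice and 0.29 over the WT mice. Over all mice the log2 fold change was 1.91 ± 1.38 (SE), with a 95% interval from -1.46 to 5.27 and an exact two-sided permutation p of 0.4 over the mice. Without Grsf1cKO 3 it was 0.26 ± 0.45.

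The dimmer *Chrng* probe also read highest in Grsf1cKO 3, by 1.30 over the next mouse. It was well above background on 3 of 4 Grsf1cKO arrays and on 2 of 4 WT arrays, those of WT 1. Its log2 signal was 5.38, 4.49 and 6.68 in the Grsf1cKO mice and 5.05, 4.13 and 2.62 in the WT mice, with overlapping genotypes. On the first array of Grsf1cKO 1 it read 4.49 and on the repeat array 6.26, so that for this mouse the value rests on which array is used. The brighter probe read 7.37 and 6.98 on the same arrays.

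**Figure D3:**
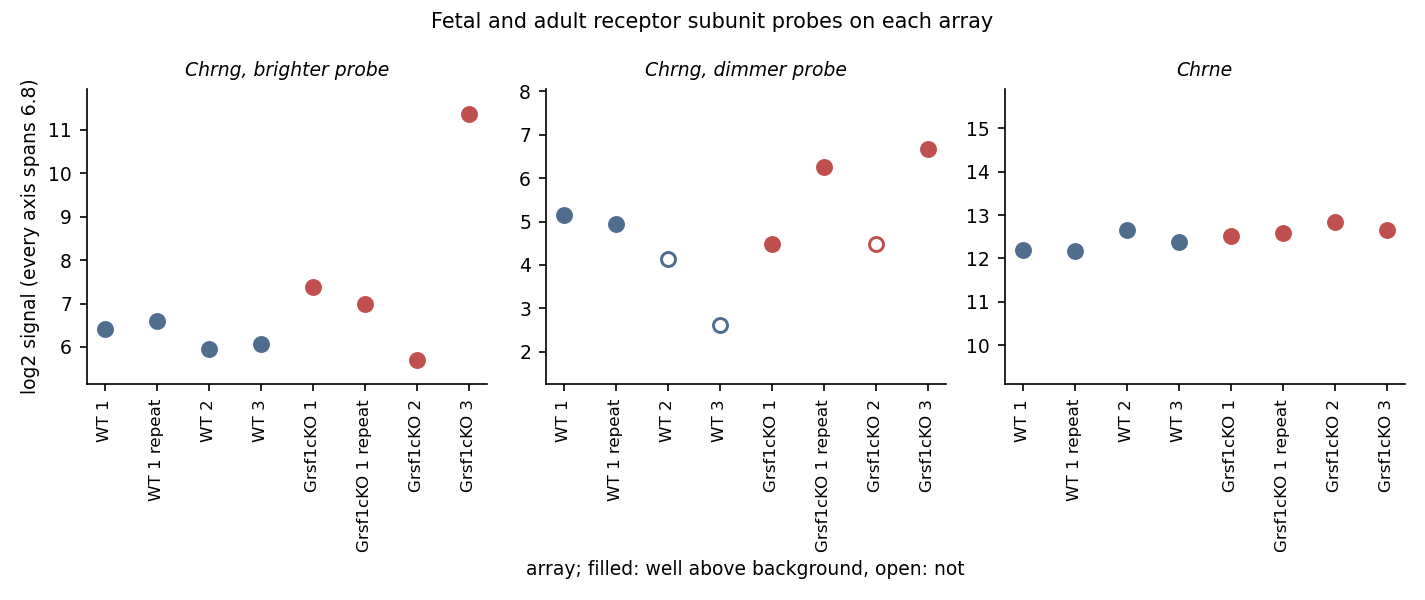
Log2 signal of both *Chrng* probes and of the *Chrne* probe on each of the 8 arrays, with filled points well above background and open points not. Each vertical axis spans the same range around its own probe. Grsf1cKO 3 stands apart on the brighter *Chrng* probe at 11.37 and lies within the other arrays for *Chrne*.

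The fetal and adult subunits were set beside each other as the difference between their deviations from their own WT means, which compares no probe's level with another's. For the brighter *Chrng* probe this difference was 0.85, -0.90 and 4.94 in the Grsf1cKO mice and 0.55, -0.47 and -0.08 in the WT mice. It was large in 1 Grsf1cKO mouse, while the other 2 lay to either side of the WT mice. The genotype means differed by 1.63 toward *Chrng* in Grsf1cKO (exact two-sided permutation p = 0.6), and by -0.02 without Grsf1cKO 3. For the dimmer *Chrng* probe no such difference is given, because it was not well above background in WT 2, WT 3 and Grsf1cKO 2.

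*Chrng* and *Chrnd* are neighboring protein-coding genes on chromosome 1. In Grsf1cKO 3, *Chrng* was 5.19 and *Chrnd* 0.93 above the WT mean on the log2 scale, *Chrna1* 1.58 and *Chrnb1* 0.95. In Grsf1cKO 1 these differences were smaller, with *Chrng* 0.997 above the WT mean and *Chrna1* 0.76. In Grsf1cKO 2, *Chrng* was 0.47 below the WT mean, while *Chrna1* was 0.32 and *Chrnb1* 0.47 above. Grsf1cKO 2 thus read above all WT mice for *Chrna1* and *Chrnb1* and below all of them for *Chrng*.

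**Figure D4:**
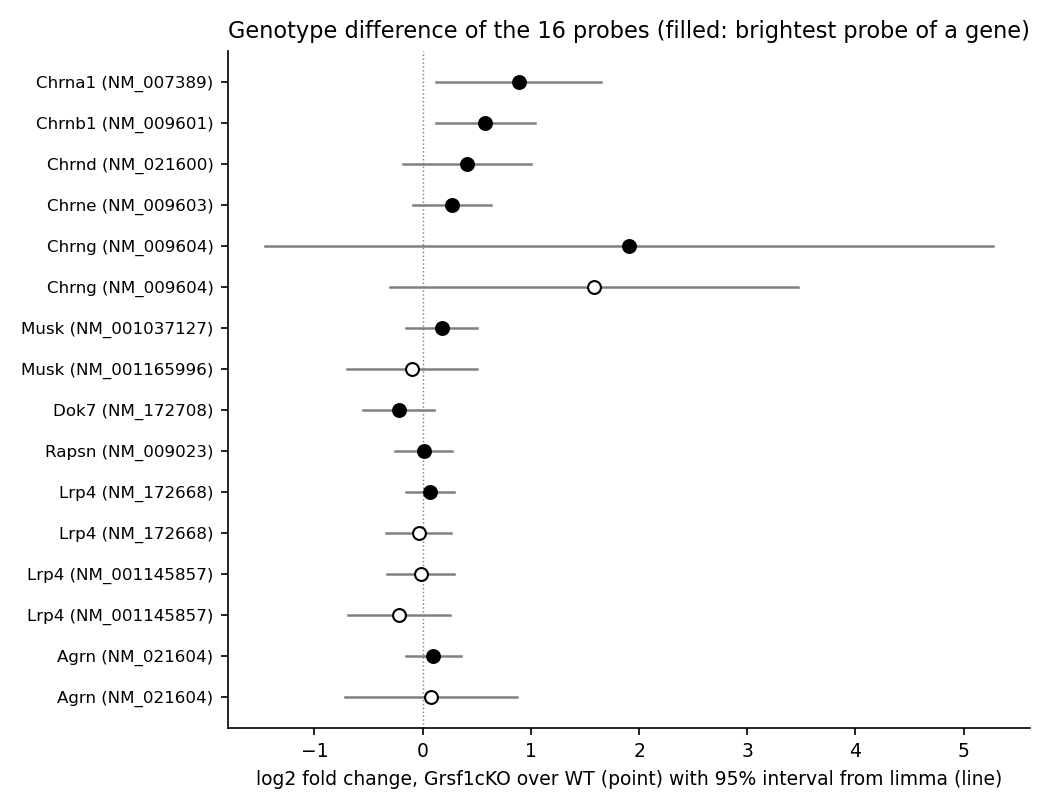
Log2 fold change of Grsf1cKO over WT for all 16 probes, with the 95% interval from limma as a line and the brightest probe of each gene filled. The intervals of *Chrna1* and *Chrnb1* lie above 0, and the other 14 cross it.

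On their brightest probes, the organizers spanned a narrower range over the 6 mice than the subunits. *Musk* encodes the receptor tyrosine kinase at the center of the junction, and its brighter probe read 10.64, 10.30 and 10.63 in the Grsf1cKO mice and 10.34, 10.21 and 10.49 in the WT mice. Between genotypes the log2 fold change was 0.18 ± 0.13 (SE, unadjusted p = 0.235 in limma). It was 0.08 on slide 2 alone, 0.10 with the slide as a block, 0.11 without WT 2 and 0.29 without Grsf1cKO 2. Its dimmer probe, assigned to another transcript, gave -0.10 ± 0.25, and 0.18 with the first array of each mouse alone. The genotypes overlapped on both probes.

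*Dok7*, the cytoplasmic activator of MuSK, was the only member with a negative log2 fold change on its brightest probe, apart from settings in which *Rapsn* or *Lrp4*, both near 0, turned negative. It read 10.34, 10.13 and 9.94 in the Grsf1cKO mice and 10.50, 10.32 and 10.26 in the WT mice. Grsf1cKO 3, the highest mouse for 4 of the 5 subunits, was the lowest for *Dok7*. Its log2 fold change was -0.22 ± 0.13 (SE, 95% interval from -0.55 to 0.10, unadjusted p = 0.146 in limma), and it was -0.12 without Grsf1cKO 3.

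*Rapsn* encodes rapsyn, the scaffold bound to the receptor. It read 12.11, 12.12 and 12.03 in the Grsf1cKO mice and 11.90, 12.18 and 12.16 in the WT mice, with all Grsf1cKO mice inside the WT range. The log2 fold change of 0.01 had a 95% interval from -0.25 to 0.27, and its sign turned to -0.01 with 75th percentile scaling.

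*Lrp4* encodes the agrin receptor and had 4 probes. The brightest read 10.55, 10.61 and 10.63 in the Grsf1cKO mice and 10.44, 10.64 and 10.52 in the WT mice, a log2 fold change of 0.07 ± 0.09 (SE). The other 3 probes gave -0.04, -0.02 and -0.22, so the probes differed in sign and the largest of these values had a 95% interval from -0.69 to 0.25. With the first array of each mouse alone that probe gave -0.05.

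*Agrn* encodes agrin, of which the muscle fiber also makes a form that clusters receptors weakly. Its brighter probe read 12.04, 11.96 and 12.14 in the Grsf1cKO mice and 11.82, 11.93 and 12.08 in the WT mice. The log2 fold change was 0.10 ± 0.10 (SE), and the dimmer probe gave 0.08 ± 0.33, and -0.00043 with the first array of each mouse alone. The agrin of motor neurons is made in the spinal cord and its mRNA was not sampled here.

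Of 17010 genes, those whose log2 signals followed *Chrna1* most closely over the 6 mice, each centered on its own mean, were *Otos*, D17H6S56E-5 and *Trpm2*, at root mean square distances of 0.18, 0.18 and 0.20. All 3 were highest in Grsf1cKO 3, with 7.74 for *Otos*, 8.86 for D17H6S56E-5 and 6.11 for *Trpm2*. Near to *Chrne* were Gm13375 and *Aldh9a1*, at 0.03 and 0.05. Both were highest in Grsf1cKO 2 and lowest in WT 1, as *Chrne* was. The members were left out of this search, so none of them could be listed.

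The other genes of the junction were examined by function, with 1 probe per gene, and 0 of them met the study's criteria. In whole muscle, a change in the number of cells or nuclei of a type cannot be told apart from a change of RNA per cell, which also holds for the few nuclei beneath the synapse. Among 14 genes of the synaptic basal lamina and of acetylcholine breakdown, 0 had an unadjusted p under 0.05 and the median log2 fold change was 0.05. *Ache*, the enzyme that ends transmission, read 10.22, 10.55 and 10.35 in the Grsf1cKO mice and 9.77, 10.25 and 10.47 in the WT mice, a log2 fold change of 0.21 ± 0.20 (SE). The laminin gene *Lama2* had 0.18 ± 0.11, and the collagen genes *Col4a3* and *Col4a4* had -0.17 ± 0.18 and -0.19 ± 0.15.

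Of 21 genes of MuSK signaling and receptor clustering, 20 were tested, with 0 at an unadjusted p under 0.05 and a median of -0.02. The genotypes of 3 did not overlap, all lower in Grsf1cKO, against 6.27% of all probes. One of them was *Abl1*, a tyrosine kinase that acts downstream of MuSK, with 13.42, 13.53 and 13.30 in the Grsf1cKO mice and 13.56, 13.56 and 13.60 in the WT mice and a log2 fold change of -0.16 ± 0.09 (SE). The other 2, named after their values were seen, were *Pdzrn3*, a ubiquitin ligase that acts on MuSK, with -0.11, and *Dnaja3*, the DnaJ protein that binds MuSK, with -0.15. *Apc* had -0.24 ± 0.29, *Pak1* 0.20 ± 0.15 and *Src* 0.16 ± 0.15, all with overlapping genotypes.

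The dystrophin-associated scaffold, which ties the receptor cluster to the cytoskeleton, gave 13 tested genes with 0 at an unadjusted p under 0.05 and a median of 0.01. *Sntb1*, the gene of beta-1-syntrophin, had the highest value at 0.12. *Dtnb*, the gene of beta-dystrobrevin, had -0.17 and *Sgcd*, the gene of delta-sarcoglycan, 0.07. No gene of this scaffold had genotypes that did not overlap.

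Of 10 genes of neuregulin signaling and the ETS and Sp1 factors of synaptic transcription, 7 were tested, because *Nrg1*, *Erbb3* and *Erbb4* did not pass the detection filter. None had an unadjusted p under 0.05 in limma. *Gabpa*, the DNA-binding subunit of the N-box factor GABP, read 10.97, 10.91 and 11.02 in the Grsf1cKO mice and 11.24, 10.96 and 11.07 in the WT mice, a log2 fold change of -0.13 ± 0.10 (SE). *Etv4* and *Etv1* had 0.11 and -0.12, and *Sp1*, the factor with genotypes that did not overlap, -0.19 ± 0.09 (unadjusted p = 0.0838 in limma). Of all probes, 6.27% were separated in this direction, lower in Grsf1cKO. Of 11 genes known from nuclei beneath the synapse, 0 passed at 0.05, with a median of 0.05. *Syne2*, a nesprin, was lowest at -0.23 ± 0.12, also with genotypes that did not overlap. The 5 glycosylation genes in which mutations cause congenital myasthenia had a median of 0.11, with *Alg14* at 0.26 ± 0.12 (unadjusted p = 0.0655 in limma).

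The remaining nicotinic receptor subunits are mostly known from neurons. The sign of their values was set beside that of the muscle subunits, a comparison that was described and not tested. Of 11 genes 6 were tested, and on the brightest probe of each all 6 had a negative log2 fold change, with a median of -0.24 and 0 at an unadjusted p under 0.05. Among all probes tested, 42.6% had a positive log2 fold change and the others a negative one. The brightest *Chrna9* probe, assigned to a predicted non-coding transcript (XR_376992), read 13.33, 13.43 and 13.04 in the Grsf1cKO mice and 13.50, 13.59 and 13.55 in the WT mice, so that the genotypes did not overlap (log2 fold change -0.28 ± 0.12, unadjusted p = 0.0656 in limma). The other *Chrna9* probe, on the coding transcript and well above background in 4 of the 6 mice, gave 0.58. *Chrnb4* also did not overlap, at -0.32 ± 0.14, and *Chrna6* was at -0.49 ± 0.21 with overlapping genotypes. The probes of *Chrna4*, *Chrna6* and *Chrnb4* were dim, at 5.27 to 6.18, 5.06 to 6.04 and 5.15 to 5.81 over the mice. On the array of Grsf1cKO 2 the lowest signal well above background was 5.01, so their values lay near the floor. Of all probes, 6.27% had genotypes that did not overlap and were lower in Grsf1cKO. Without Grsf1cKO 3, *Chrnb4* had an unadjusted p of 0.0259 in limma, the only one of the 6 under 0.05. With all mice, 2.94% of all probes were lower at this threshold. The share without Grsf1cKO 3 is not given here.

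Genes known to rise in denervated muscle were the list with the most genes at an unadjusted p under 0.05, 3 of 15, all higher in Grsf1cKO, with 0 lower and 0 past the criteria. Higher values at this threshold were seen for 1.30% of all probes. The median log2 fold change of the list was 0.47. *Cdkn1a*, an inhibitor of the cell cycle, read 12.09, 11.84 and 12.43 in the Grsf1cKO mice and 11.27, 11.75 and 11.50 in the WT mice, a log2 fold change of 0.61 ± 0.19 (SE, unadjusted p = 0.0190 in limma). *Ampd3*, the AMP deaminase that rises in atrophy, read 12.55, 12.17 and 12.25 against 12.04, 11.90 and 11.62, a log2 fold change of 0.47 ± 0.16 (unadjusted p = 0.0230 in limma). *Gadd45a*, a stress gene induced by denervation, read 12.68, 11.78 and 11.99 against 11.52, 11.63 and 11.45 (0.62 ± 0.24, unadjusted p = 0.0396 in limma). In these 3 genes the genotypes did not overlap, and the highest was Grsf1cKO 1 for *Ampd3* and *Gadd45a* and Grsf1cKO 3 for *Cdkn1a*. By RT-qPCR, the study reported no significant change of *Cdkn1a* mRNA, which it lists under its protein name. The RT-qPCR values are not shown there, so they could not be set beside the array signals.

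In all, 5 of the 15 genes had genotypes that did not overlap, all higher in Grsf1cKO, as did 3.09% of all probes. *Ankrd1*, a stress gene of the sarcomere, read 12.20, 11.95 and 14.12 in the Grsf1cKO mice and 11.79, 11.40 and 11.57 in the WT mice (1.17 ± 0.57, unadjusted p = 0.0830 in limma). *Trim63* and *Fbxo32*, the ubiquitin ligases of atrophy, had 0.03 and -0.03, and *Myod1* had -0.25, genes named after their values were seen. Without Grsf1cKO 3, again 3 genes had an unadjusted p under 0.05, *Ankrd1*, *Cdkn1a* and *Ampd3*, and the median was 0.11. All 3 were higher in Grsf1cKO, as were 1.68% of all probes at this threshold without that mouse. The mean of the list relative to WT was 0.40, -0.02 and 0.59 in Grsf1cKO 1, 2 and 3, and -0.04 to 0.06 in the WT mice.

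The markers of regenerating fiber, slow fiber, macrophage and fibroblast had their highest mean in Grsf1cKO 3, the mouse with the high *Chrng* signal. Those of skeletal muscle fiber, Schwann cell, endothelium, smooth muscle, satellite cell and fat did not. Of 7 markers of regenerating or embryonic fiber, 4 were more than 1 above the next mouse in Grsf1cKO 3, against 0.607% of all probes. *Myh3*, the embryonic myosin heavy chain, read 15.31 in Grsf1cKO 3 and 9.86 to 10.28 in the other 5 mice. *Mymk*, which fuses myoblasts, read 11.32 in that mouse and 6.76 to 7.43 in the others, and *Myog*, the gene of myogenin, 11.32 and 9.14 to 9.34. *Mymx*, the partner of *Mymk* in fusion, read 8.62, 7.55 and 11.39 in the Grsf1cKO mice and 6.89, 7.53 and 6.61 in the WT mice. The other 3 markers, named after their values were seen, did not stand apart in this way. *Myod1* was lowest in Grsf1cKO 3, at 10.87 against 10.95 to 11.56 in the others, and *Cdh15* read 12.70 there and 12.42 to 12.75 in the others. *Myh8* read 18.71 to 18.80 over all 6 mice, with 18.80 in both Grsf1cKO 3 and WT 3. Whether so bright a probe can show a rise was not tested. The mean of the 7 markers relative to WT was 0.21, -0.06 and 2.20 in Grsf1cKO 1, 2 and 3 and -0.10 to 0.07 in the WT mice, and their median log2 fold change was 0.71 with Grsf1cKO 3 and -0.03 without it.

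All 6 macrophage markers were highest in Grsf1cKO 3, against 16.3% of all probes. *Cd68* read 13.31 there and 11.57 to 11.97 in the other mice. The gap to the next mouse was 1.34 for *Cd68*, 0.88 for *Adgre1*, 0.70 for *C1qa* and only 0.0013 for *Cd163*. Their mean relative to WT was 0.77 in Grsf1cKO 3, -0.06 and -0.01 in Grsf1cKO 1 and 2, and -0.14 to 0.12 in the WT mice. Of 6 markers of slow fiber 5 were highest in Grsf1cKO 3, against 16.3% of all probes, with a mean of 1.15 there, 0.26 and -0.26 in Grsf1cKO 1 and 2 and -0.51 to 0.26 in the WT mice. *Tnni1*, slow troponin I, read 14.34 in Grsf1cKO 3 and 10.35 to 11.22 in the others, while *Myh7*, the slow myosin heavy chain, read 9.40 in that mouse, 9.47 in Grsf1cKO 2 and 9.28 in WT 1, and 11.33 to 11.39 in the other 3 mice. *Myl2*, the slow regulatory light chain, had genotypes that did not overlap, higher in Grsf1cKO, as did 3.09% of all probes. Its log2 fold change was 0.63 ± 0.26 (SE, unadjusted p = 0.0470 in limma) and 0.34 without Grsf1cKO 3 (unadjusted p = 0.0240 in limma). Of all probes tested, 1.30% were higher at an unadjusted p under 0.05, and 1.68% without Grsf1cKO 3. The 6 fibroblast markers had a mean of 0.38 in Grsf1cKO 3 and of -0.14 to 0.21 in the other mice, with *Col1a1* 14.96 in Grsf1cKO 3 and 13.87 to 14.41 in the others. All markers of these 4 lists were well above background in all 6 mice. Their part in the *Chrng* result was not tested. By histology, the study reported no obvious regenerating fibers and no obvious infiltration of inflammatory cells in either genotype. It does not say whether the mice of the arrays were the ones sectioned.

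The Schwann cells that wrap the nerve were followed with 10 markers, among them the myelin genes *Mbp* and *Mag*. Their median log2 fold change was 0.12, with 0 at an unadjusted p under 0.05, and Grsf1cKO 3 was the highest mouse for 0 of them. Markers of endothelium (8 genes, median -0.05), smooth muscle (4 genes, -0.04) and fat (4 genes, -0.04) also had 0 genes at that threshold. Of the satellite cell markers, *Pax7* had 0.10 and *Calcr* -0.11, and *Myf5* was nowhere above background by the software's flag. The mean of the fat markers ran from -0.76 in WT 3 to 0.52 in WT 1.

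**Figure D5:**
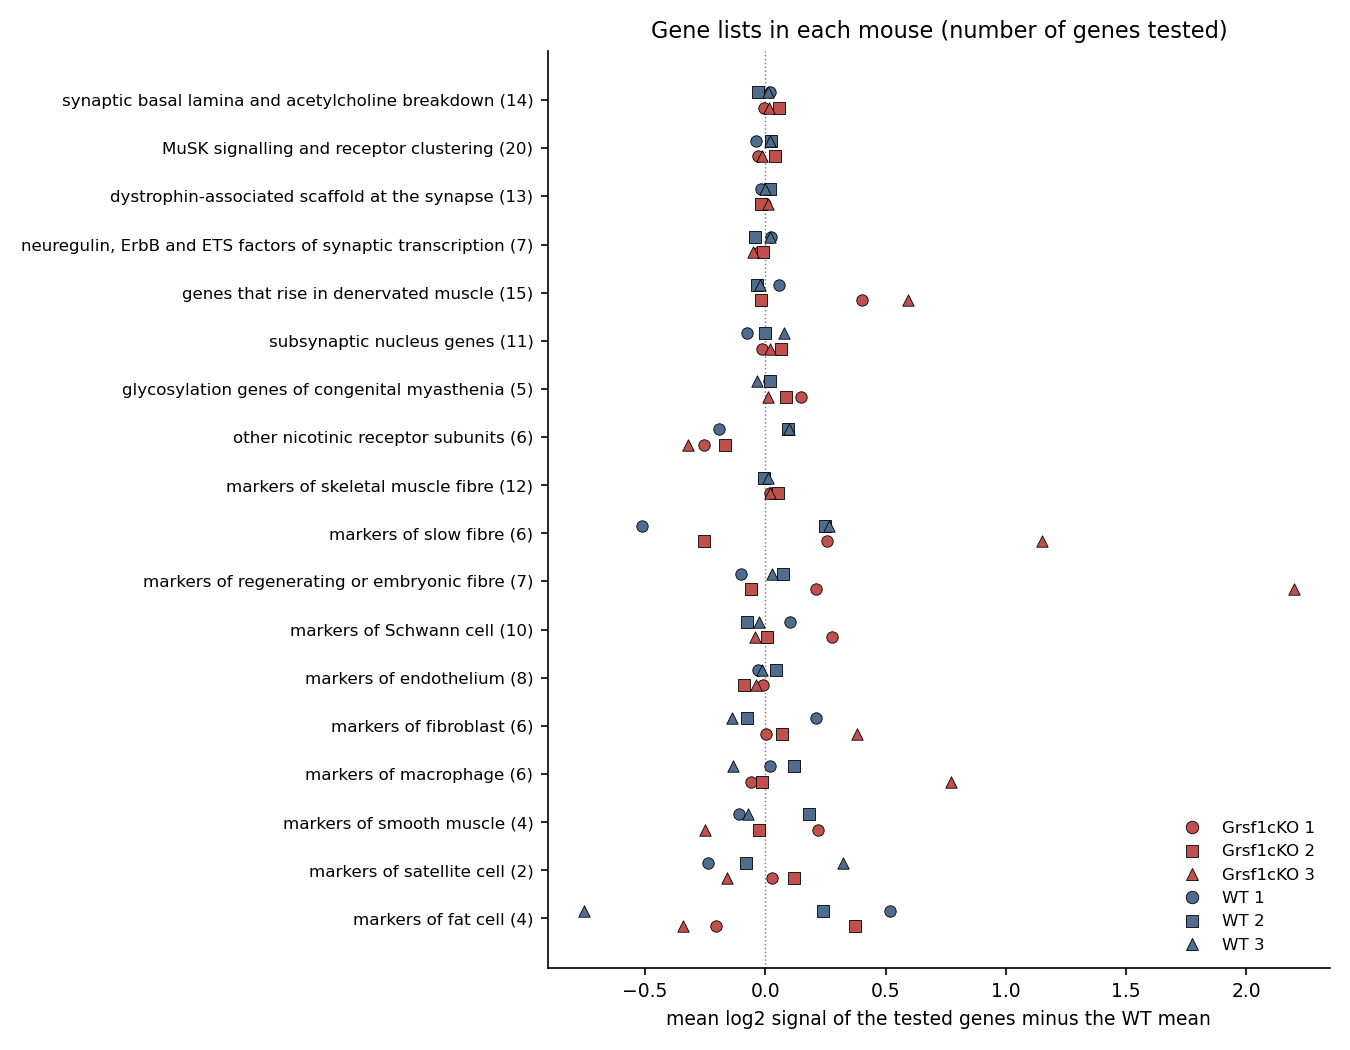
Mean log2 signal of the tested genes of each list in every mouse, relative to the mean of the WT mice, with the number of genes in brackets. The markers of regenerating fiber, slow fiber and macrophage lie at 2.20, 1.15 and 0.77 in Grsf1cKO 3, and the lists of basal lamina, MuSK signaling and scaffold genes lie near 0 in all 6 mice.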

How the data were processed

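Muscle RNA of 6 mice was labeled with Cy3 and measured on 8 Agilent 1-color arrays, because WT 1 and Grsf1cKO 1 each had a repeat array. The authors deposited the Feature Extraction output (version 12.0.3.1, per the file headers), which gives the background-corrected intensity of each spot without log transformation, beside a *z*-score table. The deposited score of a spot is its log2 signal, centered and divided by the SD over its array, since scores computed that way matched within 0.005. The methods state quantile normalization and a *z*-test.

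Here the processed intensities were quantile normalized, spots marked as outliers were left out, and log2 values were averaged over spots and over the arrays of a mouse. Probes with values in at least 2 mice per genotype and well above background in 3 or more mice entered limma 3.58.1 (R 4.3.3) with no term but genotype. Adjusted p-values cover all 38888 probes tested. Gene names and promoters came from RefSeq tables of GRCm38.p6, used for no array coordinate. Scripts were tested on simulated data.

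Members and lists were chosen with earlier results of these data known. The text names all members, *Grsf1*, up to 4 genes of each list (first those with an unadjusted p under 0.05, then by size of log2 fold change), and the 3 genes nearest to *Chrna1* and to *Chrne*, apart from a few that are not reported here. Alternatives covered the scaling, background correction, detection filter, *z*-scores, repeat arrays, slide, replicate number, variance trend, *z*-test and each mouse left out. Replicate numbers were taken as names, since same-numbered mice correlated at 0.226, 0.100 and 0.0942 in their deviations from the genotype means. The files do not say whether mice were littermates. The number of mice limits the precision of every value.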

Additional observations from a re-analysis of the deposited data

How the results depend on the processing

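No member probe met the criteria under any of the 18 alternatives run for that count. Of 190 alternative values for single genes, 184 kept their direction and their side of the threshold. The other 6 reversed, for *Rapsn* to -0.0059 with 75th percentile scaling, to -0.0089 with repeat arrays replacing first ones, and without Grsf1cKO 1, Grsf1cKO 2 or WT 1, and for *Lrp4* to -0.0509 with the mean over its probes. With each mouse left out, *Rapsn* ran from -0.0815 to 0.0625. The difference of *Chrng* against *Chrne* ran from -0.0224 (without Grsf1cKO 3) to 2.90 (without Grsf1cKO 2) with each mouse left out. With the replicate block it was 1.63 (exact permutation p = 0.75). Over all probes, 3 met the criteria, 1 with the replicate block and 320 with the *z*-test on log2 signals, where the cause was not tested, and 3 to 4 with each mouse left out. At an unadjusted p under 0.05 in limma, the replicate block added *Chrne* (unadjusted p = 0.0381, adjusted p = 0.792) to *Chrna1* and *Chrnb1*. The share of all probes at that threshold with the block is not given here, so the added gene is not set against it. The lists were not fitted with the replicate block. The gap of Grsf1cKO 3 to the next mouse on *Chrng*, chosen after seeing the data, was 4.20, and 3.67 with normexp and 2.75 with the mean over both probes. *Chrna1* was 0.54 without Grsf1cKO 3 and 1.17 without Grsf1cKO 2, *Chrnd* 0.15 and 0.62, and *Chrng* 0.26 and 3.09. *Dok7* was -0.12 without Grsf1cKO 3 and -0.33 without Grsf1cKO 1, and *Musk* was 0.04 with the mean over its probes. *Agrn* and *Lrp4* were 0.04 and 0.02 without WT 1. The genotypes of *Chrnb1* overlapped in the deposited *z*-scores, where those of *Dok7* did not. Scaling to the 75th percentile shifted the median of all probes by 0.04. The dimmer *Chrng* probe lay near background and limits what can be read from it.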

Other observations

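Genes outside the lists that stood apart in Grsf1cKO 3 beside *Chrng* were read from the ranking of 17020 genes by the gap between that mouse and the next, and were chosen after their values were seen. After *Myh3*, *Chrng* and *Mymk* came *Smim22*, with 8.64 in Grsf1cKO 3 and 4.23 to 5.08 in the other 5 mice. *Dclk1*, a kinase of the doublecortin family, read 12.39 in that mouse and 9.14 to 9.53 in the others. The fetal sarcomere genes *Myl4*, the embryonic and atrial light chain, and *Tnnt2*, cardiac troponin T, read 16.07 and 13.34 in that mouse and up to 13.48 and 10.99 in the others. *Itgax*, an integrin of myeloid cells, read 9.24 and up to 6.99, and *Lgals3*, galectin-3, read 14.34 and up to 12.13. None of these genes met the criteria between genotypes.

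By the number of probes read more than 1 above the next mouse, Grsf1cKO 3 had 236, Grsf1cKO 1 had 115, Grsf1cKO 2 had 28, and the WT mice had 23, 35 and 25. More than 2 above the next mouse there were 34 in Grsf1cKO 3 and 12 or fewer in each of the other 5 mice.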
